A study of Homo sapiens with 4 samples.

Results

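Among the 1212 miRNAs on the array, 7 are known as liver-enriched miRNAs, namely miR-122, miR-192, miR-194, miR-215, miR-148a, miR-101 and miR-885-5p. These 7 members were chosen by exact name, with star forms (the other arm of the hairpin) left out, and all 7 had 3 repeat spots on each array. They were followed in 4 lines made from HepG2, an established human liver tumour line that the study describes as hepatocellular carcinoma (HCC). HepG2-Twist1/Bcl-2 had received the plasmids pcDNA-Twist1 and pcDNA-Bcl-2, HepG2-Twist1 carried pcDNA-Twist1, HepG2-Bcl-2 carried pcDNA-Bcl-2, and HepG2-vector is the control line, for which the labels list the construct as none. Twist1 is a transcription factor that drives epithelial-mesenchymal transition (EMT), whereas Bcl-2 blocks apoptosis. The transfected lines express their genes stably, and whether a line was a clone or a pool of cells is not given in the sources used here.

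Total RNA of 1 sample per line was hybridised to 2 two-colour arrays. Array 1 held HepG2-Twist1 (Cy5) and HepG2-vector (Cy3), and array 2 held HepG2-Twist1/Bcl-2 (Cy3) and HepG2-Bcl-2 (Cy5), with no dye swap. There was therefore no replicate of any line: an SD below is over the 3 repeat spots of 1 hybridisation, is technical, and carries no test between lines. For a ratio across arrays, the SD is the root of the summed squares of the 2 lines' spot SDs on log2 levels, and is technical too. Signal over background was the limit for most members. The 20 spots named empty had medians of 159 in HepG2-Twist1/Bcl-2, 38 in HepG2-Twist1, 51.7 in HepG2-Bcl-2 and 105 in HepG2-vector. All 40 spots of the empty control type ranged from 104 to 207 in HepG2-Twist1/Bcl-2. No probe for the TWIST1 or BCL2 mRNA is used here, so the labels could not be checked on the transfected genes.

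A mature miRNA guides the Argonaute protein to messenger RNAs that pair with its seed, the bases near its 5′ end, and the paired messages are translated less and decay sooner. miR-122 is the dominant miRNA of the hepatocyte, where it supports lipid metabolism and is required by hepatitis C virus, and HepG2 cells are widely used as hepatoma cells with little of it. miR-192, miR-194 and miR-215 are made from paired genes, are abundant in liver, gut and kidney, and are induced by p53. miR-192 and miR-215, which share a seed, repress among others the EMT factor ZEB2. miR-148a represses the DNA methyltransferase DNMT1 and promotes hepatocyte differentiation. miR-101 represses the histone methyltransferase EZH2, and miR-885-5p is known as a serum marker of liver injury.

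The mature sequences are shown because results below turn on shared seeds and near-identical letters. They were taken from RefSeq (GRCh38.p14), where 7 of 7 members were matched, and are written 5′ to 3′ with the seed (bases 2 to 8) in capitals.
miR-192: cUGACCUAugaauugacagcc
miR-215: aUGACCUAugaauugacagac
miR-194: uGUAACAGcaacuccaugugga
miR-148a: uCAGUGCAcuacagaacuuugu
miR-148b: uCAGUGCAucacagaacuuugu
miR-152: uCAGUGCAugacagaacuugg
miR-101: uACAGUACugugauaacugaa
miR-122: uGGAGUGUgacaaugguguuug
miR-885-5p: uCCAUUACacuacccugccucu

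The 7 members held 6 distinct seeds. miR-192 and miR-215 shared theirs and were the same at 19 of 21 bases; the substitutions, with the base of miR-192 first and positions counted from the 5′ end, were C1A and C20A. A probe for one can therefore take up some of the other, which was not tested here. The same holds for miR-148a and miR-148b, which share the seed and most of their other bases. miR-148b and miR-152, which are not members, carry the seed of miR-148a and are made from MIR148B (chr12:54337278-54337299, plus, in the span of COPZ1) and MIR152 (chr17:48037174-48037194, minus, in the span of COPZ2). The members are made from 9 genes. MIR192 (chr11:64891203-64891223, minus strand, the mature bases) and MIR194-2 (chr11:64891404-64891425, minus) both lie in the host transcript MIR194-2HG, with 108 bases between their hairpins. MIR215 (chr1:220117916-220117936, minus) and MIR194-1 (chr1:220118206-220118227, minus) lie 194 bases apart within the span of IARS2 and of the uncharacterised transcript LOC124904515. The other members come from MIR148A (chr7:25949922-25949943, minus, in LOC105375199), MIR101-1 (chr1:65058442-65058462, minus, in the span of JAK1), MIR101-2 (chr9:4850345-4850365, plus, in the span of RCL1), MIR122 (chr18:58451088-58451109, plus, in MIR122HG) and MIR885 (chr3:10394531-10394552, minus, in the span of ATP2B2). The array reads the mature miRNA, so miR-194 and miR-101 each stand for both of their genes.

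Of the 7 members, 4 reached the minimum intensity of 32 in each line, but they were not the same 4. The study's methods applied the threshold of 32 to their own normalized values, which are on another scale than the levels used here. miR-192, miR-194 and miR-148a reached it in every line, miR-101 in both lines of array 1, and miR-215 in both lines of array 2. miR-122 and miR-885-5p reached it in no line. Over all 1212 miRNAs the minimum was reached by 39.8% in HepG2-Twist1/Bcl-2, 23.6% in HepG2-Twist1, 43.9% in HepG2-Bcl-2 and 23.3% in HepG2-vector. Most members were thus dim, and 2 of 7, miR-192 and miR-194, stood at 100 or more in every line.

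A stricter view set each spot against the spots around it, up to 3 rows and columns away, a measure chosen after the values were seen. The robust SD was taken from the neighbours below their median only. All 3 spots of miR-192 and of miR-194 exceeded their neighbours' median by more than 3 robust SDs in every line. All 3 spots of miR-148a did so in HepG2-Twist1 and HepG2-vector, against 1 spot in HepG2-Bcl-2 and 0 in HepG2-Twist1/Bcl-2. miR-101 had 1 such spot in HepG2-vector and 0 in the other lines. miR-122, miR-215 and miR-885-5p had 0 in every line, so the minimum that miR-215 reached on array 2 was not separable from its surroundings. By this measure the array detected 2 of the 7 members in each line of array 2, and 3 of the 7 in each line of array 1. The share of all miRNAs that pass it was not worked out, so these counts have no background beside them. Passing does not mean bright among neighbours: up to 11 spots around a spot of miR-192 and up to 9 around one of miR-194 were brighter.

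**Figure D1:**
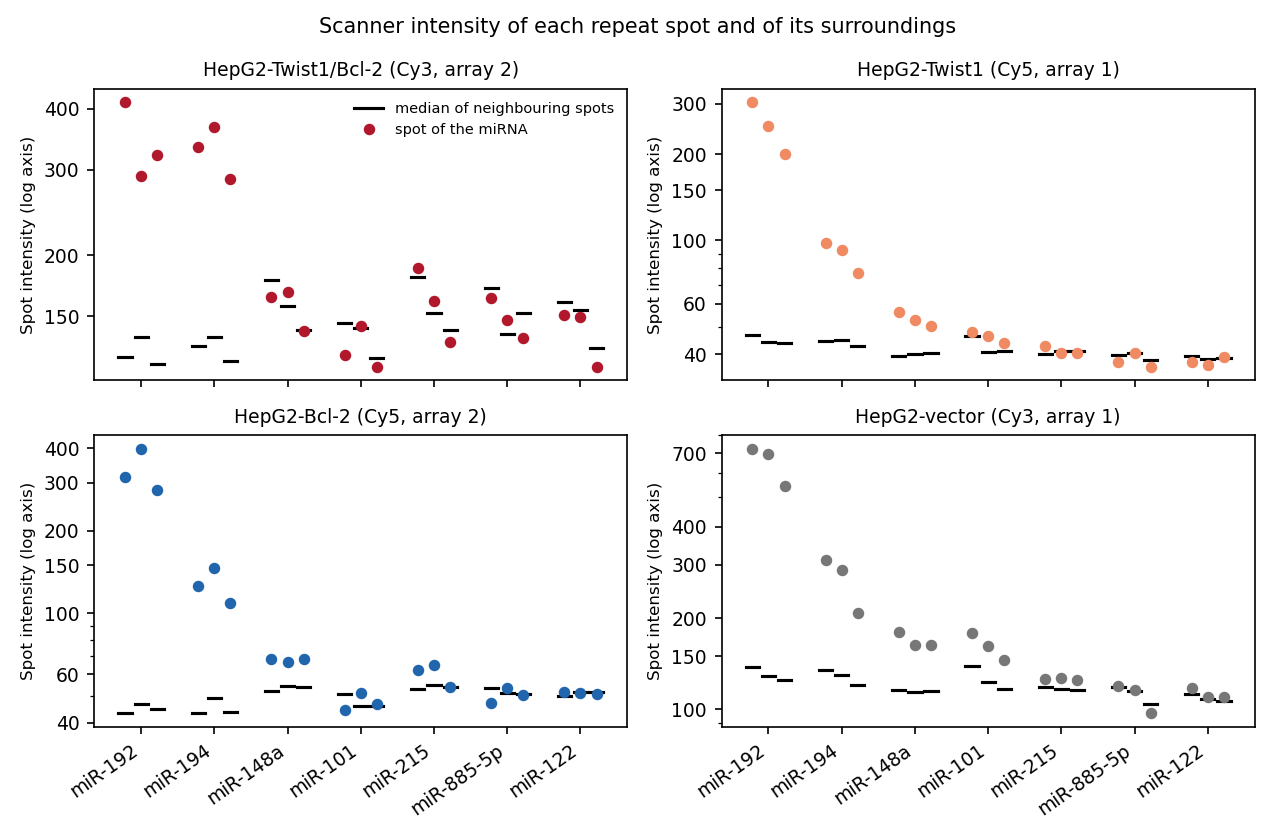
Scanner intensity of each of the 3 repeat spots of the 7 liver-enriched miRNAs (coloured points, log axis) and the median of the spots around each (black lines), with 1 panel per line and its dye and array. miR-192 and miR-194 stand clear of their surroundings in all 4 panels, while the points of miR-122, miR-215 and miR-885-5p lie on or near the lines, as do those of miR-148a in HepG2-Twist1/Bcl-2.

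miR-192 was the detected member whose level differed most among the lines. Its normalized intensity was 152 ± 43.9 in HepG2-Twist1/Bcl-2, 362 ± 78.4 in HepG2-Twist1, 443 ± 85.9 in HepG2-Bcl-2 and 352 ± 63.8 in HepG2-vector (SD over 3 spots). Levels set on a common scale across the arrays were 140 in HepG2-Twist1/Bcl-2, 417 in HepG2-Twist1, 414 in HepG2-Bcl-2 and 406 in HepG2-vector. The line with both genes thus lay below the other 3, whose levels differed by less than the spread between repeat spots.

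The scanner values before any normalization show the same order within one dye. The 3 spots of miR-192 read 412, 292 and 322 in HepG2-Twist1/Bcl-2, against 724, 696 and 545 in HepG2-vector, both labelled with Cy3 but on different arrays. The medians of their neighbouring spots were 124, 136 and 120 in HepG2-Twist1/Bcl-2, against 138, 129 and 125 in HepG2-vector. In Cy5 the spots read 304, 250 and 200 in HepG2-Twist1 and 315, 399 and 283 in HepG2-Bcl-2. In Cy3 the spots of the 2 lines did not overlap although their surroundings were of like brightness, and in Cy5 they overlapped.

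miR-194, which shares the host transcript of miR-192 through MIR194-2, showed no such gap. It had normalized intensities of 146 ± 26.4 in HepG2-Twist1/Bcl-2, 108 ± 19.7 in HepG2-Twist1, 151 ± 27.7 in HepG2-Bcl-2 and 110 ± 33.6 in HepG2-vector. On the common scale it was 125 in HepG2-Twist1/Bcl-2, 126 in HepG2-Twist1, 130 in HepG2-Bcl-2 and 129 in HepG2-vector, less apart than its repeat spots. In Cy3 its spots read 333, 367 and 287 in HepG2-Twist1/Bcl-2 and 311, 289 and 208 in HepG2-vector, so the 2 lines overlapped.

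miR-215, the seed mate of miR-192, had 35.6 ± 16.8 in HepG2-Twist1/Bcl-2, 24.6 ± 2.03 in HepG2-Twist1, 46.6 ± 13 in HepG2-Bcl-2 and 28.0 ± 0.599 in HepG2-vector. On the common scale it had 29.8 in HepG2-Twist1/Bcl-2, 30.2 in HepG2-Twist1, 40.04 in HepG2-Bcl-2 and 33.9 in HepG2-vector, so the order of the lines depended on the scale. The spot SDs of array 2 covered the difference between its 2 lines.

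miR-148a was dim but detected on array 1. The nearly identical miR-148b was brighter there, with 227 in HepG2-Twist1 and 253 in HepG2-vector. How much of it the probe of miR-148a takes up was not tested. Its intensity was 32.1 ± 10.3 in HepG2-Twist1/Bcl-2, 47.0 ± 5.46 in HepG2-Twist1, 59.2 ± 1.49 in HepG2-Bcl-2 and 53.3 ± 5.78 in HepG2-vector. HepG2-Twist1/Bcl-2 was the lowest line, and there the scanner values of 164, 169 and 140 stood beside neighbour medians of 178, 158 and 141. In that line its level is therefore no more than a bound set by background.

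miR-101 had 35.8 ± 4.70 in HepG2-Twist1, against 50.1 ± 10.4 in HepG2-vector. On array 2 it was 18.8 ± 7.59 in HepG2-Twist1/Bcl-2, against 22.3 ± 7.67 in HepG2-Bcl-2, both below the minimum. Its scanner spots read 179, 162 and 146 in HepG2-vector, above neighbour medians of 139, 123 and 116. HepG2-vector was the highest line, but with 1 of 3 spots past the limit even there, the order rests on values close to the background.

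miR-122, the hepatocyte's dominant miRNA, had 24.0 in HepG2-Twist1/Bcl-2, 17.2 in HepG2-Twist1, 30.3 in HepG2-Bcl-2 and 20.4 in HepG2-vector. It ranked 872, 919, 587 and 661 among the 1212 miRNAs of these lines in the same order. miR-885-5p had 30.5, 16.8, 30.9 and 19.2 in that order of lines. Neither was detectable in any line, and no order can be read from values at this level. These lines thus lack a detectable signal of the defining hepatocyte miRNA on this array, and 3 of the 5 hepatocyte markers looked for (miR-122, miR-192, miR-194, miR-148a and miR-885-5p) reached the minimum in each line. miR-148a did so in HepG2-Twist1/Bcl-2 by a margin within its spot SD and was below the minimum there on the common scale, so that by the comparison with neighbouring spots 2 of the 5 were detected in each line of array 2 and 3 of the 5 in each line of array 1.

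**Figure D2:**
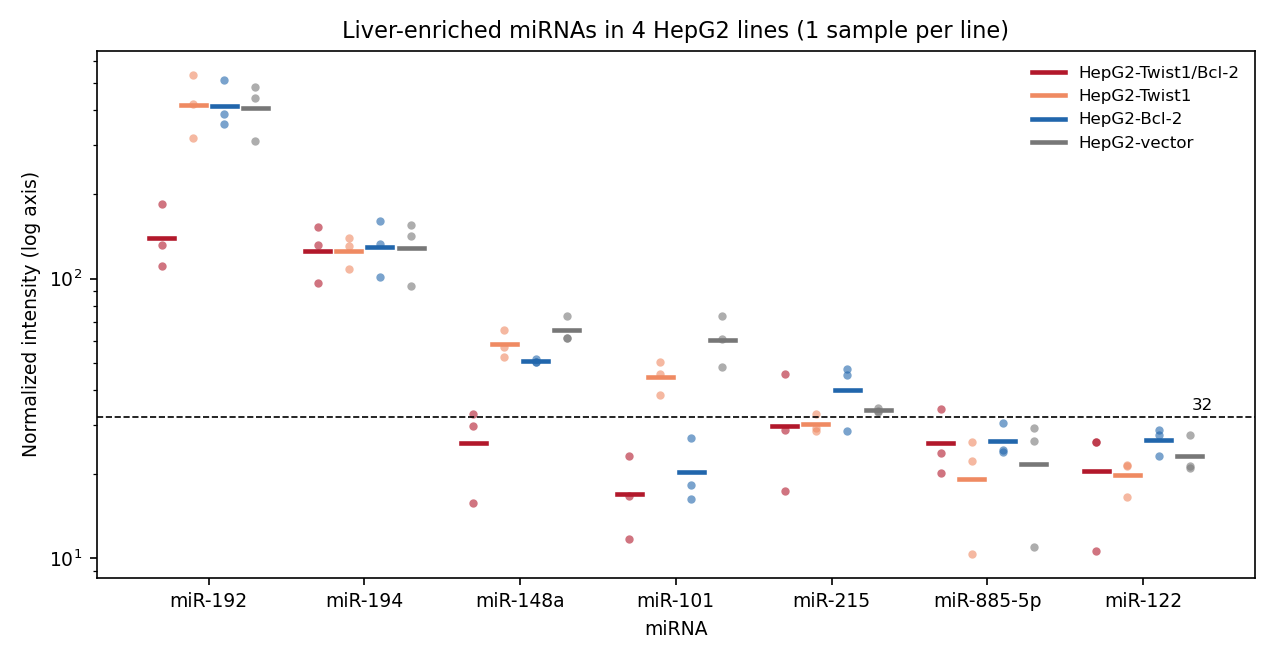
Normalized intensity of the 7 members on the scale common to both arrays (log axis), with 4 lines per miRNA from left to right as in the key. Points are the 3 repeat spots, bars the level of the line, and the dashed line the minimum of 32. miR-192 is lower in HepG2-Twist1/Bcl-2 (140) than in the other lines (406 to 417), and miR-194 lies between 125 and 130 in all 4.

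The first comparison asks which miRNAs go with Twist1 alone. On array 1, HepG2-Twist1 against HepG2-vector, 0 of the 4 measured members were called. A miRNA was measured where a line compared reached 32, and called where its log2 ratio was at least 1 in size (2-fold) and its 3 spots had one sign; 5 of all 304 measured miRNAs (1.64%), all lower in HepG2-Twist1, were called. miR-192 had a log2 ratio of 0.03 ± 0.10 and miR-194 of -0.02 ± 0.13, both smaller than the SD of their spots. The dimmer miR-148a had -0.09 ± 0.03 and miR-101 -0.22 ± 0.07, each with its 3 spots below 0. miR-101 had 0 of 3 spots clear of their surroundings in HepG2-Twist1 and 1 of 3 in HepG2-vector. Its ratio moved to -1.002 with the median empty spot subtracted, where still 0 members were called. In the authors' values, 26.48 against 46.45, it was -0.54 because those under 32 were set to 32. The median of the 4 members was -0.06, beside -0.02 over all measured miRNAs.

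Without normalization, 3 of the measured members (miR-192, miR-194 and miR-101) passed the limit as lower in HepG2-Twist1, where the median of all measured miRNAs was itself -0.63. In that setting 131 of all 814 measured miRNAs were called, all of them lower.

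The second comparison sets Twist1 within the Bcl-2 background. On array 2, for HepG2-Twist1/Bcl-2 over HepG2-Bcl-2, 1 of the 4 measured members was called, miR-192, which was lower. Over all 592 measured miRNAs 50 (8.45%) were called, of which 29 (4.9%) were lower and 21 (3.55%) higher. The 3 spots of miR-192 gave log2 ratios of -0.90, -1.80 and -1.16, a mean of -1.29 ± 0.47, and its level was 2.91-fold lower in HepG2-Twist1/Bcl-2. All 3 spots lay below 0, but their spread was wide: among the 137 miRNAs that reached 100 in each line of the array, whose median spot SD was 0.14, miR-192 had the 3rd highest spot SD. It ranked 9th from the lowest ratio among those 137 and 21st among all 592.

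Its cluster partner did not share this. miR-194 had a log2 ratio of -0.04 ± 0.03 on the same array. The ratio of miR-192 minus that of miR-194 was -1.25 on array 2 and 0.06 on array 1. Both were read in the same channels of the same array, and this difference is a measure chosen after the values were seen. A constant factor between dyes drops out of it, but one that changes with intensity does not. miR-192 was the brighter of the 2 in HepG2-Bcl-2 (443 against 151), and a dye effect was not tested. miR-194 itself stood at 0.44 with the array centred and 0.98 without normalization, 0.31 and 0.38 above the medians of all measured miRNAs in those settings.

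The remaining measured members were closer to 0. miR-148a had -0.41 ± 0.17, with its 3 spots at -0.35, -0.28 and -0.61, and miR-215 had -0.17 ± 0.16. miR-101, miR-122 and miR-885-5p were below the minimum in both lines and had -0.07, -0.12 and -0.01. All 4 measured members lay below 0, as did 58.3% of all measured miRNAs, and their median was -0.29, beside -0.04 over all. Under the alternatives miR-148a lay between -3.06 with the median empty spot subtracted and 0.38 without normalization, where the median of all measured miRNAs was 0.59. With the empty spot subtracted, differences under 1 were set to 1. This held for the spot of miR-148a at 140 in HepG2-Twist1/Bcl-2, under an empty median of 159, so the value of that setting rests partly on the floor. Relative to the median of each setting it was below 0 in all of them, from -3.15 to -0.07 in the authors' values.

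The call of miR-192 on array 2 depended on how the dyes were balanced. It was -0.79 when the array was centred on its median in place of loess and -0.25 with no normalization, where the medians of all measured miRNAs were 0.13 and 0.59. Relative to those medians it stood at -0.91 and -0.84, beside -1.25 after loess. The split of all called miRNAs moved as well, with 38 higher and 19 lower after centring and 107 higher and 10 lower without normalization, beside 21 and 29 after loess. The difference between miR-192 and miR-194 was -1.23 without normalization and lay between -1.76 and -1.001 under the 13 alternatives. Part of this range is built in. A minimum cannot move the difference, and centring gives the same -1.23 as no normalization because a constant drops out. The range therefore does not show how certain the difference is.

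**Figure D3:**
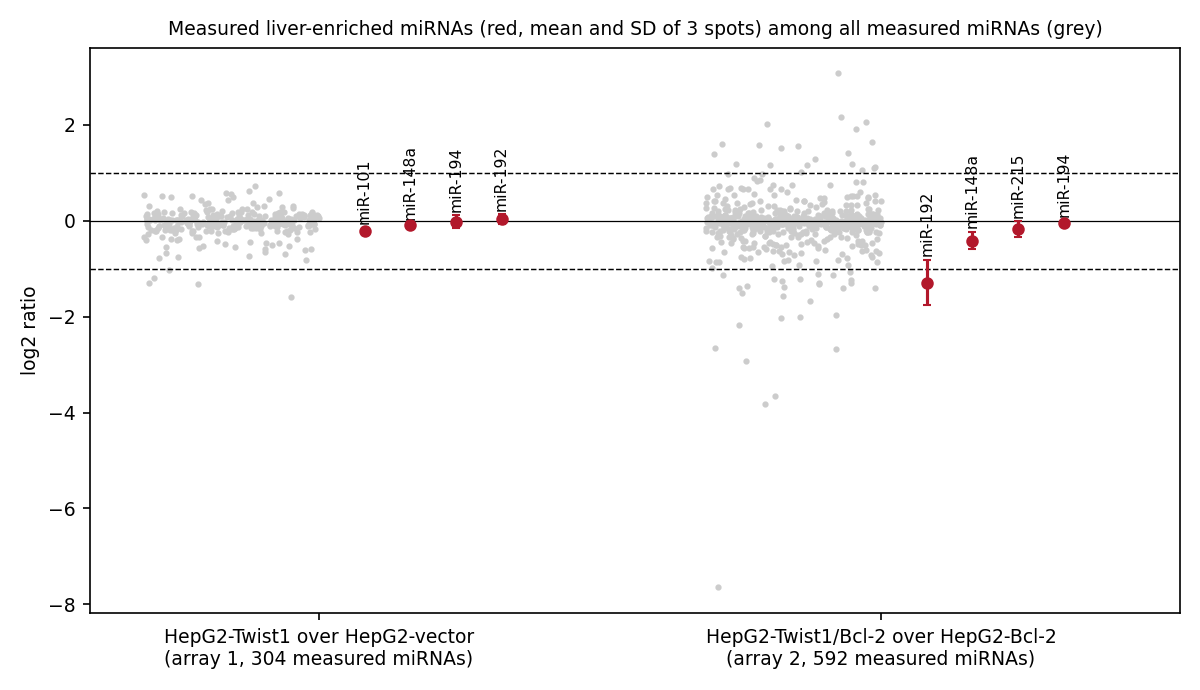
Log2 ratios on array 1 (HepG2-Twist1 over HepG2-vector) and array 2 (HepG2-Twist1/Bcl-2 over HepG2-Bcl-2). Grey points are all measured miRNAs, spread sideways only for visibility, red points the measured members with the SD of 3 spots, and dashed lines the limits of 2-fold. miR-192 passes the lower limit on array 2 (-1.29) and lies at 0.03 on array 1.

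The line with both genes was also set against the lines of the other array, after quantile normalization of the mean log intensity. Here the array and the Bcl-2 plasmid cannot be told apart, calls went by size alone, and the comparisons share the sample of HepG2-Twist1/Bcl-2 with the one above. In HepG2-Twist1/Bcl-2 over HepG2-Twist1, which also crosses dyes, 1 of 4 measured members was called, beside 62 of all 454 (13.7%, with 6.61% higher and 7.05% lower). miR-192 had -1.30 ± 0.43 and miR-194 -0.00 ± 0.28. In HepG2-Twist1/Bcl-2 over HepG2-vector, both in Cy3 and added after the values were seen, 1 of 5 measured members was called, beside 58 of all 449 (12.9%, with 5.35% higher and 7.57% lower).

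There miR-192 had -1.26 ± 0.41 and miR-194 -0.03 ± 0.36. This same-dye value of miR-192 was past 2-fold under all 13 alternatives, from -1.54 to -1.09, and was -1.38 without normalization within the arrays. Against HepG2-Twist1 it was -0.71 after centring and -0.15 without normalization, as on array 2, and in the last setting it was miR-194 that passed the limit, as higher (1.06). The median of all measured miRNAs was 0.65 in that setting, and relative to it miR-194 stood at 0.41 and miR-192 at -0.81. The wide range in the comparisons across dyes stands beside a narrow one within Cy3. Part of that narrowness is built in: a minimum cannot move a ratio, and centring and no normalization kept the quantile step across arrays. The range therefore does not show how certain the value is.

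**Figure D4:**
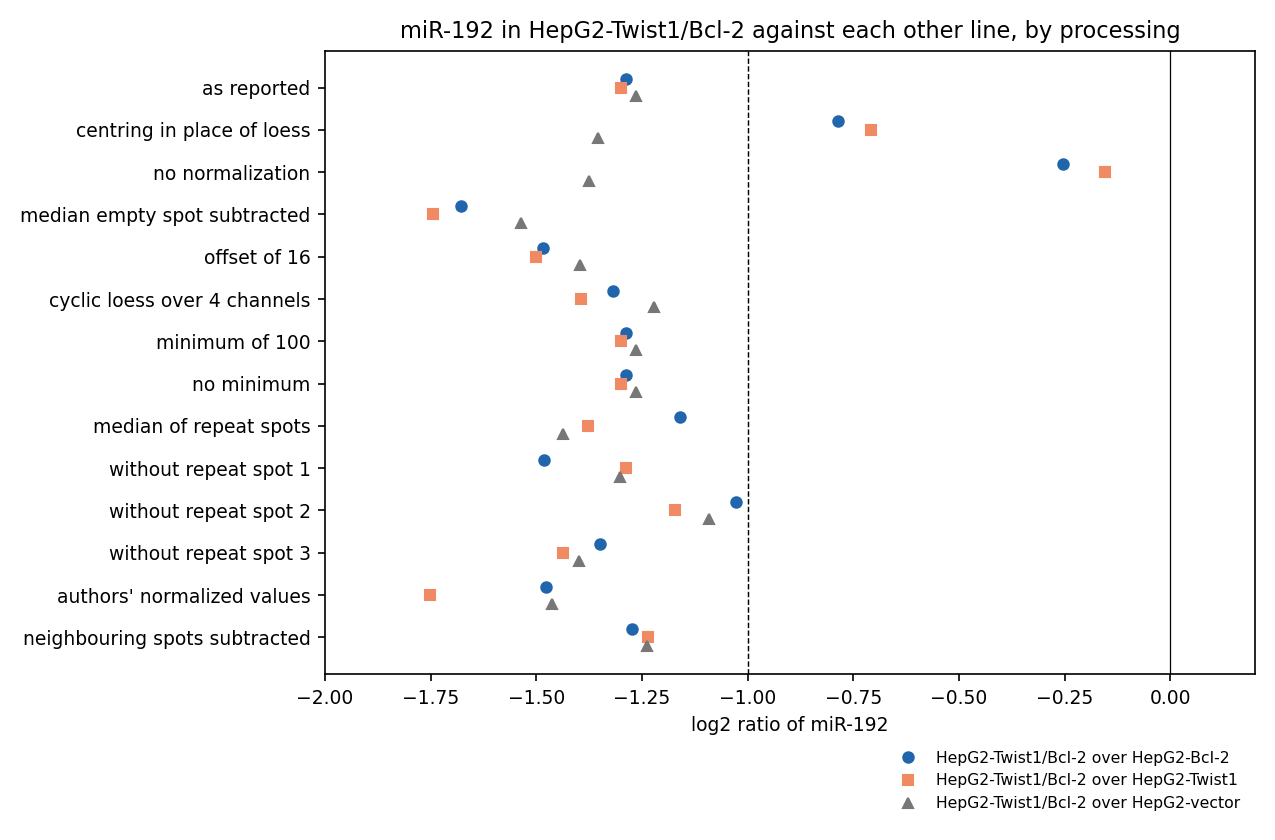
Log2 ratio of miR-192 in HepG2-Twist1/Bcl-2 over HepG2-Bcl-2 (circles), HepG2-Twist1 (squares) and HepG2-vector (triangles), as reported and under 13 other ways of processing, with the limit of 2-fold dashed. The triangles, the comparison within Cy3, stay between -1.54 and -1.09, while circles and squares move to -0.79 or closer to 0 with centring or without normalization. For squares and triangles, which cross arrays, centring and no normalization kept the quantile step.

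On the common scale the line with both genes had the dimmer members under 32, so no fold is given for them. On the common scale miR-148a was 25.8 in HepG2-Twist1/Bcl-2, against 58.3 in HepG2-Twist1 and 65.3 in HepG2-vector. Its log2 ratios, which hold the offset added before the logarithm and so understate dim miRNAs, were -0.52 ± 0.20 over HepG2-Twist1 and -0.61 ± 0.20 over HepG2-vector, short of the limit. In the authors' values, with those under 32 set to 32, they were -0.41 and -0.66. Without normalization the ratio over HepG2-Twist1 was 0.32, beside a median of 0.65 over all measured miRNAs. miR-101 was 17.0 in HepG2-Twist1/Bcl-2, against 44.6 in HepG2-Twist1 and 60.4 in HepG2-vector. Its log2 ratios were -0.50 ± 0.15 over HepG2-Twist1 and -0.72 ± 0.20 over HepG2-vector, and in the authors' values, treated in the same way, 0 and -0.54.

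Bcl-2 without Twist1 was read from HepG2-Bcl-2 against HepG2-vector, again across arrays and dyes. None of the 5 measured members was called, beside 24 of all 485 miRNAs (4.95%, with 2.68% higher and 2.27% lower). The ratio of miR-192 was 0.02 ± 0.38, of miR-194 0.01 ± 0.36, of miR-215 0.10 ± 0.17 and of miR-148a -0.19 ± 0.09. miR-101 had the lowest, -0.65 ± 0.20, with 20.4 in HepG2-Bcl-2 against 60.4 in HepG2-vector. In the authors' values, 10.01 against 46.45, the ratio was -0.54 because those under 32 were set to 32. An offset of 16 in place of 50 took miR-101 past the limit (-1.02). It was -1.27 without normalization, beside a median of -0.62 over all measured miRNAs, and -4.22 with the median empty spot subtracted. In that last setting differences under 1 were set to 1. The spots of miR-101 in HepG2-Bcl-2 (44.6, 51.5 and 46.8) all lay under the empty median of 51.7. The -4.22 is thus set by this floor and is not a measured fold. The member was below the minimum in both lines with the Bcl-2 plasmid and above it in both without, and since the first pair is array 2 and the other array 1, plasmid and array cannot be told apart here. Scaling also moved the split of all calls across arrays: after centring it was 9 higher and 37 lower in this comparison and 55 higher and 20 lower in HepG2-Twist1/Bcl-2 over HepG2-Twist1, and without normalization 6 and 135 in this comparison and 117 and 5 in the other, beside 13 and 11 in this one and 30 and 32 in the other as reported.

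Over both arrays together, the lines with Twist1 were tested against the lines without it by limma on the 2 array log2 ratios, with 1 residual degree of freedom before moderation. Of the 5 members among the 624 miRNAs tested, 0 passed an adjusted p of 0.05, and over all miRNAs 0 (0%) did, with a smallest adjusted p of 0.989. At an unadjusted p under 0.05 there were 7 miRNAs and 0 members, and the methods' t-test at 0.01 gave 1 miRNA, 0 after adjustment, and 0 members. The mean log2 ratio of miR-192 was -0.63 (SE 0.44, 95% interval -2.32 to 1.07, limma adjusted p = 0.989), being near 0 on one array and -1.29 on the other. miR-148a had -0.25 (SE 0.13), miR-101 -0.15 (SE 0.09), miR-215 -0.12 (SE 0.08) and miR-194 -0.03 (SE 0.08). The interval of miR-192 holds both 0 and values past 2-fold lower, so the 2 pairs did not settle it. Whether the effect of Twist1 on miR-192 differs with and without Bcl-2 was not tested, as there is 1 array for each.

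The seed relatives of miR-148a parted from each other. miR-148b, which shares its seed and most of its other bases, had 95.9 in HepG2-Twist1/Bcl-2, 227 in HepG2-Twist1, 271 in HepG2-Bcl-2 and 253 in HepG2-vector. It was called lower on array 2 with a log2 ratio of -1.14 ± 0.34 and had -0.13 ± 0.13 on array 1. As for miR-192, the call on array 2 ended with centring (-0.65) and without normalization (-0.11). Within Cy3, against HepG2-vector, the ratio of miR-148b was -1.28 as reported and -1.39 without normalization within the arrays, the quantile step across arrays being kept. miR-152 had 399 in HepG2-Twist1/Bcl-2, 229 in HepG2-Twist1, 521 in HepG2-Bcl-2 and 225 in HepG2-vector, with -0.35 ± 0.21 on array 2 and 0.02 ± 0.09 on array 1. miR-148b thus had its lowest level in HepG2-Twist1/Bcl-2, as miR-192 and miR-148a did, and miR-152 had its lowest levels on array 1. Uptake of miR-148b by the probe of miR-148a was not tested, so the likeness of these 2 may not be independent.

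The other arms of the members' hairpins, 6 on the array, were dim throughout, and 1 of them, miR-885-3p, came to 32 or more (on array 2, with 35.1 in HepG2-Twist1/Bcl-2 against 43.1 in HepG2-Bcl-2). For miR-192 and miR-194 the arm named was thus the one detected. Among 8 other miRNAs abundant in liver (let-7a, miR-21, miR-22, miR-26a, miR-27b, miR-30a, miR-30d and miR-99a), all 8 stood at 100 or more in every line. On array 1 none of the 8 was called and their median log2 ratio was -0.04, and on array 2 1 of 8 was called, lower, with a median of -0.55. That one was miR-21, a growth-promoting miRNA raised in many tumours, at 11430 in HepG2-Twist1/Bcl-2 against 27477 in HepG2-Bcl-2, a log2 ratio of -1.26 ± 0.30 (-0.81 without normalization). let-7a, which restrains growth genes such as RAS, had 0.23 ± 0.13, and miR-26a had -0.43 ± 0.08 and miR-27b -0.67 ± 0.09 on that array.

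By pattern over the 4 lines, miR-192 was nearest to miR-1908 (distance 0.15 on centred log2 levels), miR-30a (0.29) and miR-3656 (0.31) among 123 miRNAs at 100 or more in every line. miR-1908 had 137 in HepG2-Twist1/Bcl-2, 371 in HepG2-Twist1, 344 in HepG2-Bcl-2 and 376 in HepG2-vector. miR-30a, of the miR-30 family that epithelial cells express, had 1599 in HepG2-Twist1/Bcl-2, against 3140, 3129 and 3111 in HepG2-Twist1, HepG2-Bcl-2 and HepG2-vector. For miR-194 the nearest were miR-92b (0.09), miR-15b (0.09) and miR-421 (0.16), which like it were nearly level over the lines. The likeness is over 4 samples, 2 of them on each array, and is a description only.

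Markers of other cell types that liver tissue could hold were mostly near background. Of 12 such miRNAs, 2 were at 32 or more in HepG2-Twist1/Bcl-2, 1 in HepG2-Twist1, 6 in HepG2-Bcl-2 and 1 in HepG2-vector. Over all miRNAs it was 39.8%, 23.6%, 43.9% and 23.3% in the same order. These levels were not set on the common scale, so the counts also follow the array. The summed intensity of the 12 was 386, 323, 617 and 338 in this order of lines, with values near background included. The one at 100 or more was miR-126, a miRNA of the endothelial gene EGFL7, with 106 in HepG2-Twist1/Bcl-2, 121 in HepG2-Twist1, 288 in HepG2-Bcl-2 and 143 in HepG2-vector. It was called lower on array 2 (-1.11 ± 0.08, against -0.62 with centring and -0.08 without normalization), beside miR-192 and miR-148b, and the part of any such difference in their values was not tested. The blood marker miR-451 and the fibroblast markers miR-199a-3p and miR-199a-5p were below the minimum in every line.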

How the data were processed

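The authors deposited the scanner's spot intensity for each channel of the 2 arrays, with no background column, and a table of normalized intensity values per miRNA, which per the study's methods had been background-subtracted and normalized by cyclic LOWESS, with 32 as a later threshold. These run below 32, are linear and not centred, and have medians of 12.5 in HepG2-Twist1/Bcl-2, 12.6 in HepG2-Twist1, 12.1 in HepG2-Bcl-2 and 12.7 in HepG2-vector. The scanner intensities (median per spot, 3 spots per miRNA) were used, and the deposited normalized intensities served as an alternative. For the ratios of that alternative, values under 32 were set to 32. Since no background column was given, the normexp model of limma was fitted channel by channel to the spots (offset 50), followed by loess within each array (span 0.3, 4 iterations, 332 control spots at weight 0). Levels are geometric means over the spots with the offset taken off. Quantile normalization of the mean log intensity (Aquantile) set levels across arrays. R 4.3.3 and limma 3.58.1 were used. The calling was run on simulated data in which both arrays held the same true ratios and all miRNAs had the same spot noise. It therefore gives no backing to a single call such as that of miR-192, whose repeat spots spread widely.

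With 1 sample per line, lines were compared by size. The 2 pairs of lines were tested by limma's lmFit and eBayes over all measured miRNAs with Benjamini-Hochberg adjustment. The methods' t-test compared 2 lines with 2 lines on log2 levels. Nothing says that the samples are separate cultures. Named miRNAs were all members, the 3 nearest by pattern of members at 100 or more in every line, and up to 4 of each further list besides counts; miR-21, miR-126, miR-148b, miR-451, miR-199a-3p and miR-199a-5p are listed markers or seed relatives. Members and lists were chosen with earlier results of these data known. The alternatives were centring, no normalization, subtraction of the median empty spot, an offset of 16, cyclic loess over the 4 channels, a minimum of 100 or none, the median of the spots, each spot left out in turn, the authors' values and, added after the values were seen, subtraction of the neighbouring spots' median. Where the median empty spot was subtracted, differences under 1 were set to 1. Centring and no normalization changed only the step within arrays, and comparisons across arrays kept the quantile step.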

Additional observations from a re-analysis of the deposited data

How the results depend on the processing

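The members called differed from the values given above only in these settings. Without normalization, 3 members were called in HepG2-Twist1 over HepG2-vector (0 as reported), 0 in HepG2-Twist1/Bcl-2 over HepG2-Bcl-2 (1 as reported) and 4 in HepG2-Bcl-2 over HepG2-vector (0 as reported), and in HepG2-Twist1/Bcl-2 over HepG2-Twist1 the 1 called member was miR-194 in place of miR-192. With centring, 0 were called in HepG2-Twist1/Bcl-2 over HepG2-Bcl-2 and 0 in HepG2-Twist1/Bcl-2 over HepG2-Twist1 (1 as reported in each). With an offset of 16, 1 was called in HepG2-Bcl-2 over HepG2-vector. In HepG2-Twist1/Bcl-2 over HepG2-vector, 2 were called (1 as reported) with the median empty spot subtracted and with the neighbouring spots subtracted (miR-192 and miR-148a), and with an offset of 16 (miR-192 and miR-101). The mean log2 ratio of miR-194 over both arrays, -0.03, turned to 0.0866 with the empty spot subtracted, 0.0614 in the authors' values and 0.00429 with the neighbouring spots subtracted. The cause of these changes was not tested. Counts over all miRNAs moved too, as did the number measured. On array 1, 131 of 814 measured miRNAs were called without normalization and 23 of 328 with centring. There 9 of 196 were called with the empty spot subtracted and 9 of 278 in the authors' values, against 5 of 304 as reported. On array 2, 117 of 968 were called without normalization, 57 of 618 with centring and 91 of 223 with the empty spot subtracted, against 50 of 592. In HepG2-Bcl-2 over HepG2-vector 141 of 925 were called without normalization, 46 of 454 with centring and 72 of 223 with the empty spot subtracted. With an offset of 16 it was 41 of 431 and in the authors' values 49 of 302, against 24 of 485. In HepG2-Twist1/Bcl-2 over HepG2-Twist1 122 of 935 were called without normalization, 75 of 490 with centring and 117 of 227 with the empty spot subtracted, against 62 of 454. Over HepG2-vector it was 112 of 227 with the empty spot subtracted, 82 of 401 with an offset of 16 and 74 of 229 with the neighbouring spots subtracted, against 58 of 449. Leaving out a repeat spot gave miR-192 values of -1.48 to -1.03 on array 2, the last without the second spot. The test over both arrays already pairs the lines by array, and no other paired analysis (a replicate block) was possible because each line has 1 sample and the labels give no replicate numbers. Signal over background limits miR-122, miR-215, miR-885-5p and miR-101 on both arrays, and miR-148a on array 2.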
